A study of Mus musculus with 6 samples.

Results

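Transcripts of 10 genes of neutrophils were followed in mouse lung, out of 41388 genes in the count table. The genes S100a8, S100a9, Retnlg, Ly6g, Cxcr2, Csf3r, Mmp8, Mmp9, Ngp and Camp were taken by their symbol, and all 10 were present in the table. Lungs were collected at Zeitgeber time 7 (ZT7), 7 h after lights on in a light/dark cycle, and RNA was sequenced from whole tissue. The labels name no treatment. The control libraries WT1, WT2 and WT3 came from C57BL/6J mice. The libraries KO1, KO2 and KO3 came from mice of the same colony and background in which the 5' part of Zpbp2, with its promoter, is deleted. The age and sex of the mice of these 6 libraries were not given in the sources used here, where adults of both sexes are stated for the lungs of a separate time series, and each genotype is a single strain from 1 facility. The question asked here was whether lung neutrophil transcripts differed between the genotypes at this time of day.

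Neutrophils are short-lived granulocytes that are made in bone marrow and released into blood, and a large pool of them sits in the capillaries of the lung. Their numbers in blood and tissue follow the time of day in mice. A neutrophil fills its granules in a fixed order while it matures. Myeloperoxidase and elastase are made first, lactoferrin, cathelicidin and Ngp later, and gelatinase last, and transcription of the early granule genes is shut down before the cell leaves the marrow. Calprotectin, the chemokine receptor CXCR2 and the G-CSF receptor are abundant in the mature cell. In bulk lung, fewer neutrophils and less RNA of a gene per neutrophil cannot be told apart.

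Total counts ranged from 59134950 to 71354388 per library, and 23070 to 23711 genes were detected. Zpbp2 had 20, 15 and 7 counts in WT1 to WT3 and 1, 0 and 0 in KO1 to KO3, which fitted the labels. The lung markers, led by Scgb1a1, summed to 43471 to 47010 counts per 1000000 scaled counts (CPM) in WT and 61256 to 70298 CPM in KO. WT3 and KO1 stood apart from the others. They held 4842 and 9252 CPM of 15 squamous epithelium genes, led by Krt4, against 28.4 to 39.7 CPM elsewhere, and the defining genes Krt6a and Dsg3 had 0 or 1 counts in the other 4 libraries. KO2 and KO3 were nearly as alike as repeated counts of 1 library. The spread between them was 1.71 to 3.37 times what counting gives, as a variance over 4 classes of count, against 1.85 to 53.1 times between WT1 and WT2. The methods of the study give KO1, KO2 and KO3 as separate mice. Because of this likeness KO2 and KO3 were taken here as 1 sample, which leaves 3 WT and 2 KO samples and 426 called genes, against 3402 with the 6 libraries kept separate, and p-values measure only the spread between these samples. Means are given ± SD throughout.

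None of the 9 neutrophil genes that could be tested passed the quasi-likelihood test of edgeR, a test of count data in which a gene is called if its adjusted p does not exceed 0.05. Over all 18660 tested genes 426 were called, or 2.28%. Before adjustment 3 of the 9 had a p up to 0.05, Mmp9, Ngp and Camp, all lower in KO. At that level 27.3% of all tested genes differed in either direction and 13.4% were lower in KO. With DESeq2 the count of called genes was 3, the same Mmp9, Ngp and Camp, where 21.9% of all genes tested by DESeq2 were called. The log2 fold change (KO against WT) was below 0 for 8 genes and above 0 for 1, with 47.8% of all tested genes below 0, and its median was -0.25 against 0.02 over all tested genes. In 4 of the 10 genes, Ly6g, Mmp9, Ngp and Camp, every KO library was below every WT library, a pattern seen in 20.7% of all tested genes, while 20.1% had the reverse pattern. Ly6g was removed by the filter for low counts and is described by its counts.

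**Figure D1:**
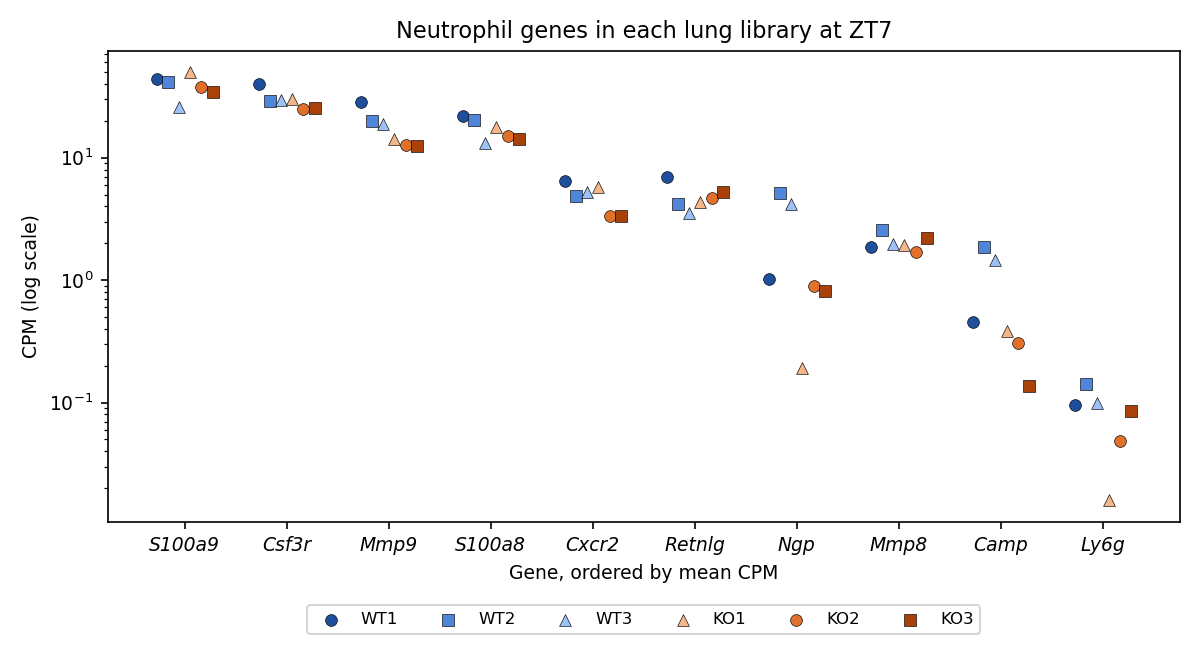
Level of each of the 10 neutrophil genes (CPM, log axis) in the 6 lung libraries, with WT libraries in blue and KO libraries in orange and triangles for the pair with squamous transcripts. Ngp and Camp spread most within WT, where WT1 lies near the KO libraries, and Mmp9 has all 3 KO libraries below all 3 WT libraries.

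S100a8 and S100a9 encode the calcium-binding subunits of calprotectin, a main cytosolic protein of neutrophils that binds zinc and manganese and signals through TLR4 and RAGE. Both lie on chromosome 3 of GRCm38, S100a8 (ENSMUSG00000056054) on the plus strand from 90668978 to 90670035 and S100a9 (ENSMUSG00000056071) on the minus strand from 90692632 to 90695721. S100a8 had 21.7, 20.3 and 13.3 CPM in WT1, WT2 and WT3 and 17.9, 15.1 and 14.1 CPM in KO1, KO2 and KO3. The KO libraries lay between the lowest and the highest WT library. The means were 18.4 ± 4.50 CPM (n = 3) in WT and 16.3 ± 2.31 CPM (n = 2) in KO. The log2 fold change was -0.18 (SE 0.24, edgeR adjusted p 0.682), within the spread of the replicates. It was -0.04 without WT1 and -0.37 without WT3.

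S100a9 had 43.5, 41.4 and 26.1 CPM in the WT libraries and 49.9, 37.8 and 34.1 CPM in the KO libraries. KO1 was the highest library and WT3 the lowest, so the groups overlapped. With means of 37.0 ± 9.49 CPM (n = 3) and 42.9 ± 9.85 CPM (n = 2), the log2 fold change of S100a9 was 0.22 (SE 0.26, edgeR adjusted p 0.643).

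Squamous epithelium can also express both calprotectin genes, and most squamous transcripts lay in WT3 and KO1, all 15 listed genes being measured. Krt1 and Krt10 did not have this pattern. Ivl had only 0.934 and 0.938 CPM in WT3 and KO1 against 0.468 to 0.720 CPM elsewhere. WT3, with 4842 CPM of squamous transcripts, was the lowest library for S100a8 and S100a9, and KO1, with 9252 CPM, was the highest for S100a9. Their part in these levels was not tested. Without WT3 and KO1 the log2 fold changes were -0.52 for S100a8, which was then called (edgeR adjusted p 0.0211, range 0.0211 to 0.951 over 15 alternatives), and -0.24 for S100a9 (adjusted p 0.115). That fit holds 2 WT samples and, since KO2 and KO3 count as 1, a lone KO sample taken to vary like the WT samples, and 11.9% of all tested genes were called in it. Between KO1 and WT3 the ratios of CPM were 1.35 for S100a8 and 1.91 for S100a9, while the mean of KO2 and KO3 was 0.697 and 0.848 of the mean of WT1 and WT2. The pair of libraries and the other 4 libraries thus differed in direction for both subunits.

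The sequence before each start is shown because the subunits are usually transcribed together. The stretches are from RefSeq promoters on GRCm38.p6, read 5' to 3' on the strand of the gene, as far as the first annotated exon base. They are chr3:90668821-90668977 for S100a8 and chr3:90695722-90695971 for S100a9. Capitals mark matches to GAGGAAGT, a form of the site of PU.1, or to TTGCNNAA, a form of the site of C/EBP factors, on either strand. Both are factors of the granulocyte lineage, and neither motif contains the other.
S100a8: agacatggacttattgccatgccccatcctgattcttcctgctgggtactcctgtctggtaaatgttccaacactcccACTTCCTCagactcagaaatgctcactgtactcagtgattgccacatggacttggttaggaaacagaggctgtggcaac
S100a9: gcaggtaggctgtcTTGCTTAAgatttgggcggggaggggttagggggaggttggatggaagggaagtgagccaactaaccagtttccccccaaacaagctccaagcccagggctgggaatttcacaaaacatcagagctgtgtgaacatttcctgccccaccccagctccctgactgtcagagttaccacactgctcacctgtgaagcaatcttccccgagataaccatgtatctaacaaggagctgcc
The S100a8 match lies 172 bases before the RefSeq start and the S100a9 match 236 bases before it. Of all 32851 RefSeq starts, 2.44% held the PU.1 letters and 9.56% the C/EBP letters in the 250 bases before the start, and a match is a description of the sequence only.

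The surface receptors decide how neutrophils leave the marrow and enter tissue. Csf3r encodes the receptor of G-CSF, which drives neutrophil production, and Cxcr2 the receptor of the chemokines that draw them into tissue. Csf3r (ENSMUSG00000028859, chromosome 4, 126024550 to 126044440, plus strand) had 39.9, 29.3 and 29.6 CPM in WT1 to WT3 and 30.1, 25.1 and 25.4 CPM in KO1 to KO3. KO2 and KO3 were below all WT libraries, and KO1 lay just above WT2 and WT3. The means of Csf3r were 32.9 ± 6.05 CPM (n = 3) and 27.7 ± 3.39 CPM (n = 2), with a log2 fold change of -0.25 (SE 0.17, edgeR adjusted p 0.414). The log2 fold change of Csf3r was -0.08 without WT1, -0.38 without KO1 and -0.46 without WT3 and KO1, and Csf3r was called in 0 of 15 alternatives (adjusted p 0.0709 to 0.717).

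Cxcr2 (ENSMUSG00000026180, chromosome 1, 74153989 to 74161246, plus strand) had 6.42, 4.86 and 5.29 CPM in WT and 5.71, 3.35 and 3.32 CPM in KO. Again KO2 and KO3 were the lowest libraries and KO1 lay within the WT range. The means were 5.52 ± 0.807 CPM (n = 3) in WT and 4.52 ± 1.68 CPM (n = 2) in KO, which gave a log2 fold change of -0.29 (SE 0.27, edgeR adjusted p 0.546). Without KO2 and KO3, which leaves KO1 alone, the log2 fold change of Cxcr2 was 0.04 (adjusted p 0.909, with the lone KO sample taken to vary like the WT samples). Without KO1 it was -0.73 (adjusted p 0.162) and without WT3 and KO1 -0.76 (adjusted p 0.0600), again with a lone KO sample.

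Ly6g, which encodes the surface antigen used to sort mouse neutrophils, was near the limit of detection. Ly6g (ENSMUSG00000022582, chromosome 15, 75155240 to 75159126, plus strand) had 7, 10 and 6 counts in WT against 1, 3 and 5 counts in KO. All KO libraries were below all WT libraries, but by a single count at the closest. How the counting treated reads shared with the many similar Ly6 genes was not tested. These few counts are uncertain, and no fold is given.

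Retnlg encodes a resistin-like secreted protein of mature neutrophils in mice. Retnlg (ENSMUSG00000022651, chromosome 16, 48872621 to 48874496, plus strand) had 6.98, 4.22 and 3.50 CPM in WT1 to WT3 and 4.36, 4.64 and 5.24 CPM in KO1 to KO3. WT1 was the highest library and the other WT libraries were the lowest. The means were 4.90 ± 1.84 CPM (n = 3) and 4.65 ± 0.415 CPM (n = 2), and the log2 fold change of Retnlg was -0.07 (SE 0.32, edgeR adjusted p 0.906). Without WT1 its log2 fold change was 0.27 (adjusted p 0.460), and the sign for Retnlg also turned without KO1 and with the replicate block, to 0.0062 and 0.013.

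Mmp8 and Mmp9 encode the collagenase and the gelatinase that neutrophils carry in their granules, and Mmp9 is also made by macrophages and stromal cells. Mmp9 (ENSMUSG00000017737, chromosome 2, 164940780 to 164955850, plus strand) had 28.3, 19.8 and 18.8 CPM in WT1 to WT3 and 14.1, 12.6 and 12.6 CPM in KO1 to KO3. All KO libraries were below all WT libraries, and the gap between WT3 and KO1 was larger than the range within KO. The means were 22.3 ± 5.22 CPM (n = 3) in WT and 13.4 ± 1.10 CPM (n = 2) in KO. This gave a log2 fold change of -0.74 (SE 0.21), or 1.67-fold lower in KO, with an unadjusted p of 0.0160 and an edgeR adjusted p of 0.106, so Mmp9 was not called.

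The call for Mmp9 moved with the processing while its direction did not. In 15 alternatives the log2 fold change of Mmp9 ranged from -0.94 to -0.53 and the adjusted p from 0.0049 to 0.227. It was called in 4 of them, with the 6 libraries kept separate (edgeR adjusted p 0.0262), with the replicate number as a block (0.0424), with DESeq2 (0.0049) and without WT3 and KO1 (0.0197, with the lone KO sample taken to vary like the WT samples). In these fits 18.9%, 6.42%, 21.9% and 11.9% of all tested genes were called. Within the pair with squamous transcripts, KO1 had 0.753 of the level of WT3, and in the other libraries the ratio of the means was 0.523.

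Mmp8 (ENSMUSG00000005800, chromosome 9, 7558456 to 7568485, plus strand) had 1.87, 2.55 and 1.99 CPM in WT and 1.94, 1.69 and 2.21 CPM in KO. The groups overlapped, with WT2 the highest library and KO2 the lowest. Its log2 fold change was -0.13 (SE 0.19, edgeR adjusted p 0.702), from 2.14 ± 0.364 CPM (n = 3) to 1.95 ± 0.008 CPM (n = 2). The collagenase and the gelatinase of the granules thus had unlike differences between the groups, a contrast that was not tested.

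Ngp encodes neutrophilic granule protein, a cystatin-like protein of the secondary granules, and Camp encodes the precursor of cathelicidin, an antimicrobial peptide of the same granules. Their transcripts are made mainly by marrow precursors and are low in mature blood neutrophils. Both lie on chromosome 9, Ngp (ENSMUSG00000032484) on the plus strand from 110419747 to 110423012 and Camp (ENSMUSG00000038357) on the minus strand from 109847379 to 109849617. Ngp had 75, 363 and 253 counts in WT1 to WT3 and 12, 55 and 48 counts in KO1 to KO3, which is 1.02, 5.17 and 4.22 CPM against 0.191, 0.887 and 0.822 CPM. WT2 and WT3 were far above the rest, whereas WT1 lay just above KO2. The means were 3.47 ± 2.17 CPM (n = 3) and 0.523 ± 0.469 CPM (n = 2), the former with a 5.05-fold range among WT libraries.

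The log2 fold change of Ngp was -2.69 (SE 0.97) and it was not called (unadjusted p 0.0383, edgeR adjusted p 0.161). A log2 fold change of -2 or below was found in 0.847% of all tested genes. Over 15 alternatives the log2 fold change of Ngp ranged from -4.17 to -1.85 and the adjusted p from 0.0374 to 0.344. It was called in 2 of them, with the replicate block (0.0374) and with DESeq2 (0.0488). KO1 had 0.0452 of the level of WT3, and the mean of KO2 and KO3 was 0.276 of the mean of WT1 and WT2.

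Camp had 33, 131 and 88 counts in WT1 to WT3 and 24, 19 and 8 counts in KO1 to KO3. The order within WT was the same as for Ngp, with WT2 highest and WT1 close to the KO libraries. In CPM the means were 1.26 ± 0.730 (n = 3) in WT, with a 4.14-fold range among libraries, and 0.302 ± 0.113 (n = 2) in KO. The log2 fold change was -2.07 (SE 0.69, unadjusted p 0.0288, edgeR adjusted p 0.140), and Camp was not called. Over the alternatives its log2 fold change ranged from -2.48 to -1.67 and its adjusted p from 0.0168 to 0.318, and it was called with DESeq2 alone.

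Sequences before Ngp and Camp are shown because their counts followed the same order within WT. The stretches end at the first annotated exon base and are chr9:110419558-110419746 for Ngp and chr9:109849618-109849706 for Camp, with capitals for a match to TTGCNNAA.
Ngp: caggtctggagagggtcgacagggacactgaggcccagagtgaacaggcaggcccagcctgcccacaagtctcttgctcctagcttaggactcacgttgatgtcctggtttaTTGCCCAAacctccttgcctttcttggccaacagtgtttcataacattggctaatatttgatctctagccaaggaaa
Camp: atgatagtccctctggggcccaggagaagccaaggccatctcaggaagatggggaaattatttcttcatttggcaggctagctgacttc
The match in Ngp lies 138 bases before its RefSeq start, and another lies 11 bases before it, past the end of the stretch shown. Neither motif was found in the 250 bases before the RefSeq start of Camp, which says only that these letters are not in that window. Of the 9 neutrophil genes with a RefSeq promoter, all but Mmp9, the C/EBP letters were found before a start of 5 (S100a9, Mmp8, Ngp, Ly6g and Retnlg) and the PU.1 letters before a start of 3 (S100a8, Mmp8 and Ly6g).

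**Figure D2:**
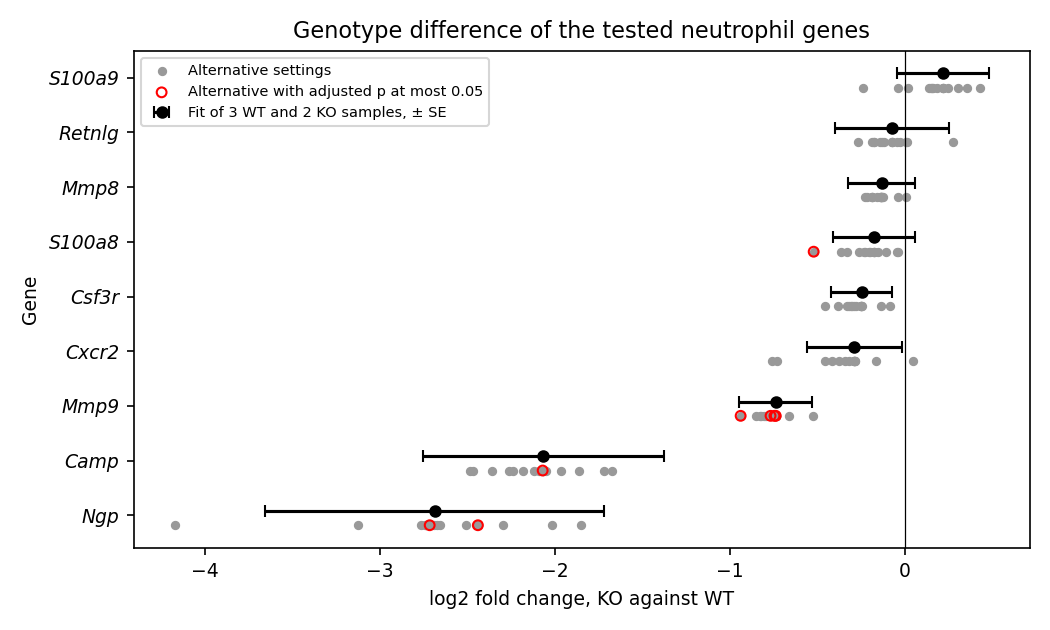
Log2 fold change (KO against WT) of the 9 tested neutrophil genes, with black points and bars for the estimate ± SE of the fit of 3 WT and 2 KO samples, grey points for the alternative settings and red circles for alternatives with an adjusted p of at most 0.05. Ngp, Camp and Mmp9 lie below 0 in every setting, and the S100a9, Retnlg, Cxcr2 and Mmp8 points cross 0.

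Levels between genes were compared per kilobase of exon. In WT the order of mean CPM per kb was S100a9 at 70.8 ± 18.2, S100a8 at 26.5 ± 6.49, Csf3r at 9.12 ± 1.68, Retnlg at 8.26 ± 3.10, Mmp9 at 6.30 ± 1.47, Ngp at 2.84 ± 1.78, Cxcr2 at 1.81 ± 0.265, Camp at 1.66 ± 0.963, Mmp8 at 0.881 ± 0.15 and Ly6g at 0.120 ± 0.027 (n = 3). Each of the adjacent pairs Csf3r and Retnlg, Retnlg and Mmp9, Ngp and Cxcr2, Cxcr2 and Camp, and Camp and Mmp8 differed by less than the larger SD of the pair. In KO the calprotectin genes were again first, with S100a9 at 82.3 ± 18.9 and S100a8 at 23.4 ± 3.33 CPM per kb (n = 2). Camp, at 0.398 ± 0.149 CPM per kb in KO, stood below Mmp8 at 0.802 ± 0.003, while Ngp, at 0.428 ± 0.384, did not differ from Mmp8 beyond its SD.

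The summed level of the 10 genes was 150, 129 and 104 CPM in WT1 to WT3 and 125, 102 and 98.0 CPM in KO1 to KO3, so the groups overlapped. Without S100a8 and S100a9 the sums were 85.0, 67.9 and 64.9 CPM in WT and 56.8, 48.7 and 49.8 CPM in KO, and every KO library was below every WT library. This was a pattern of 20.7% of single tested genes, and the sum of these 8 genes was not among the planned results. Csf3r and Mmp9 were the most abundant of the 8, and Mmp9 had this pattern on its own. WT1 was the highest WT library for S100a8, S100a9, Retnlg, Cxcr2, Csf3r and Mmp9. For Ngp and Camp the highest WT library in CPM was WT2, and the lowest was WT1. Mmp8 and Ly6g had the same order in CPM. Their WT1 and WT3 differed by less than counting noise, with a squared difference over the counting variance of 0.221 and 0.00671. Ngp and Camp therefore did not vary as 1 block with the genes highest in WT1 among the WT libraries.

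Other granule genes were read from lists drawn up by their known roles. Of 6 azurophil granule genes, those of the earliest granules, 4 were tested and 0 were called by edgeR, with 1 at a p up to 0.05 before adjustment. All 4 estimates were below 0, with a median log2 fold change of -2.04, or -1.67 with Fcnb set to its bound. Mpo, which encodes myeloperoxidase, had 9, 48 and 26 counts in WT against 2, 12 and 8 in KO (log2 fold change -1.92, SE 0.94, edgeR adjusted p 0.262). In 14 alternatives Mpo was called once, with the replicate block (0.0468). WT1 lay below KO2 for Mpo, so the groups overlapped in counts. Prtn3, encoding proteinase 3 and the most abundant of the list, had a log2 fold change of -0.31 (edgeR adjusted p 0.428, log2 fold change -0.55 to -0.02 over 15 alternatives).

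Some azurophil genes outside the naming rule were looked at after their values were seen, because they shared the WT order of Ngp and Camp. Elane, which encodes neutrophil elastase, had 4, 19 and 10 counts in WT against 0, 3 and 4 in KO. Ctsg, which encodes cathepsin G, had 2, 11 and 7 counts in WT against 3, 1 and 0 in KO. Fcnb, which encodes ficolin B, had 2, 15 and 9 counts in WT against 0, 0 and 2 in KO, at least 2.67-fold lower against a floor of 3 counts per KO library. In each, WT2 was the highest library and WT1 was far below WT2 and WT3. WT1 lay within the range of the KO counts for all 3 genes.

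**Figure D3:**
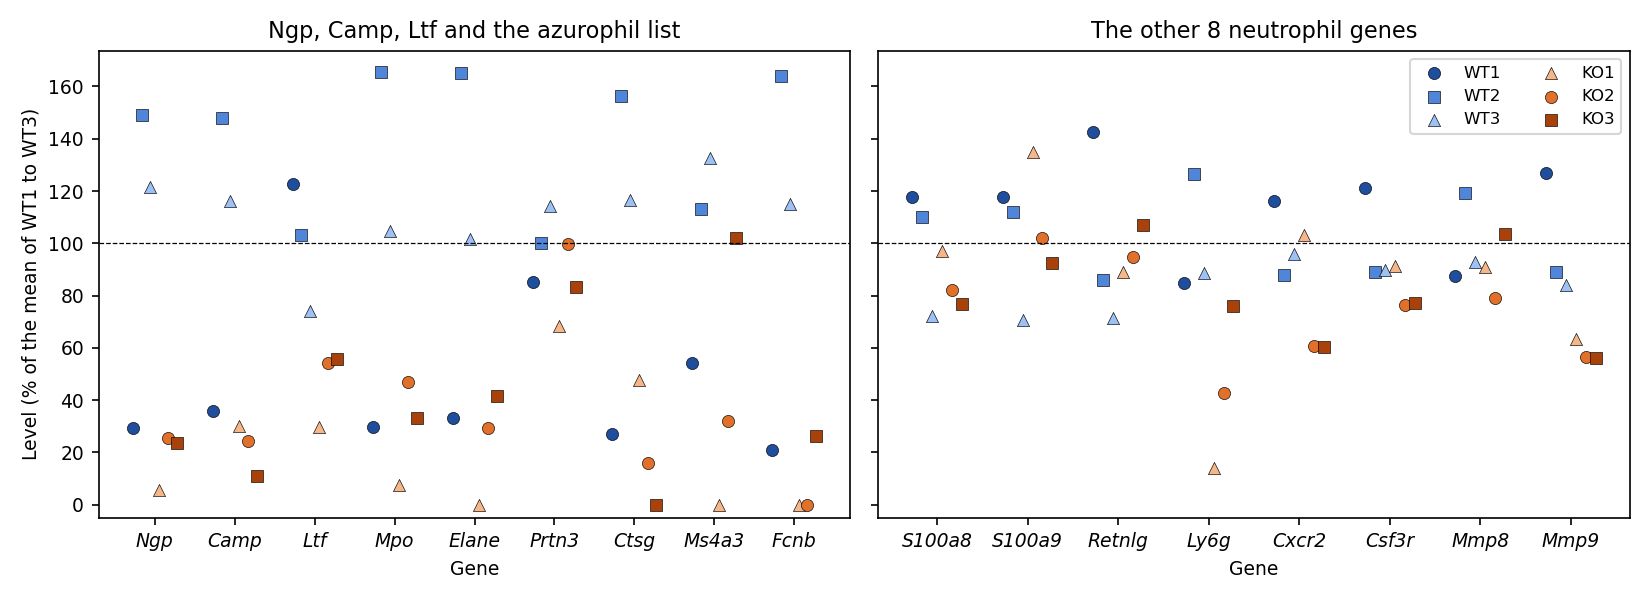
Level of Ngp, Camp, Ltf and the 6 genes of the azurophil list (left) and of the other 8 neutrophil genes (right) in each library, in percent of the mean of WT1 to WT3 (dashed line at 100). For Ngp, Camp, Mpo, Elane, Ctsg and Fcnb, WT2 and WT3 lie above the line and WT1 lies near the KO libraries at up to 35.7%, its value for Camp, whereas WT1 is at 123% for Ltf, 85.4% for Prtn3 and 54.3% for Ms4a3, and on the right WT1 is the highest library for S100a8, Retnlg, Cxcr2, Csf3r and Mmp9 but not for S100a9, Ly6g or Mmp8.

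Among 7 secondary granule genes 5 were tested and 1 was called, with a median log2 fold change of -0.44. Before adjustment 3 had a p up to 0.05. In 3 of the 7 every KO library was below every WT library and in 1 the reverse held. These patterns were seen in 20.7% and 20.1% of all tested genes. Itgb2l, named after its values were seen, had few counts, with 8, 13 and 12 in WT1 to WT3 against 0, 4 and 1 in KO1 to KO3. Its log2 fold change was -2.61 (edgeR adjusted p 0.138). Lcn2, which encodes the iron-binding protein lipocalin 2 and is also made by airway epithelium, rose from 72.3 ± 3.53 CPM (n = 3) to 116 ± 2.06 CPM (n = 2), a log2 fold change of 0.69 (SE 0.06, edgeR adjusted p 0.0446). Ltf, which encodes lactoferrin and is also a product of airway glands, was chosen after its values were seen. It had 127, 107 and 77.1 CPM in WT1 to WT3 and 30.7, 56.2 and 57.9 CPM in KO1 to KO3, with all KO libraries below all WT libraries and WT1 the highest. Its log2 fold change was -1.24 (SE 0.35, edgeR adjusted p 0.104, range 0.0024 to 0.254 over 15 alternatives, called in 3). Chil3, also a product of alveolar macrophages, had a log2 fold change of -0.25 (edgeR adjusted p 0.329, log2 fold change -0.41 to -0.13 over 15 alternatives). The call for Lcn2 was lost without WT1, WT2, WT3 or KO1 and without KO2 and KO3 together, at adjusted p values from 0.0829 to 0.189, and with an offset for gene length and GC content, at 0.107. Its log2 fold change stayed between 0.59 and 0.72 in all 15 alternatives. The lung epithelial markers Sftpc and Sftpb, surfactant protein genes, were also called higher in KO, with log2 fold changes of 0.62 and 0.49 (edgeR adjusted p 0.0446 for both, called in 8 of 15 alternatives, in which they ranged from 0.46 to 0.66 and from 0.32 to 0.53). The part of epithelial RNA in the level of Lcn2 was not tested.

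Of 31 further genes of mature neutrophils 25 were tested and 0 were called by edgeR, with 0 at a p up to 0.05 before adjustment. Their estimates were below 0 in 13 and above 0 in 12, with a median log2 fold change of -0.04. Lrg1, which encodes a secreted leucine-rich glycoprotein also made by other cells, had 65.8 ± 7.46 CPM (n = 3) in WT and 72.7 ± 8.28 CPM (n = 2) in KO (log2 fold change 0.15, edgeR adjusted p 0.481). Asprv1, a protease gene of neutrophils and of stratified epithelium, had 95, 66 and 13751 counts in WT1 to WT3 and 27454, 84 and 58 in KO1 to KO3. Its high libraries were WT3 and KO1, those with squamous transcripts. The same was seen for Il1r2, a decoy receptor gene named after its values were seen, with 322 counts in WT3 and 628 in KO1 against 47 to 80 elsewhere.

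The ligands, receptors and partners of the 10 genes were described from 7 more lists. Over all 10 lists, these 3 of neutrophil genes included, 77 of 89 genes were tested and 3 were called by edgeR, or 3.9% against 2.28% of all tested genes, while DESeq2 called 18 of the 71 it tested, or 25.4% against 21.9% of all genes. The 3 called genes were Lcn2 and Ager, which were higher in KO, and Itgal, which was lower.

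Of 6 chemokine genes listed as ligands of CXCR2 all were tested and 0 were called by edgeR. Before adjustment 2 had a p up to 0.05, and the median log2 fold change was 0.45. Whether each product binds CXCR2 was not tested here. Cxcl15, a chemokine gene of lung epithelium, had a log2 fold change of 0.29 (SE 0.07, edgeR adjusted p 0.0833, called in 2 of 15 alternatives). Ppbp, a chemokine gene of platelets, had 21.6 ± 4.67 CPM (n = 3) in WT and 33.1 ± 9.04 CPM (n = 2) in KO (log2 fold change 0.62, edgeR adjusted p 0.186). Its log2 fold change ranged from 0.30 to 0.86 over 15 alternatives, and it was called in 1. The platelet markers, 7 of 7 measured and led by Itga2b, summed to 66.5 to 91.7 CPM in WT and 95.0 to 126 CPM in KO, and their part in the level of Ppbp was not tested. The opposing axis, by which CXCL12 holds CXCR4-bearing neutrophils in the marrow, had 0 of 2 genes called by edgeR and 0 at a p up to 0.05 before adjustment. Cxcr4 had a log2 fold change of 0.06 (edgeR adjusted p 0.660) and Cxcl12 one of -0.13 (adjusted p 0.486).

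The ligand of the receptor Csf3r, G-CSF, is encoded by Csf3, which had 1, 1 and 3 counts in WT against 0, 0 and 2 in KO and was at or under the floor of 3 counts in every library. Of 11 genes of this axis 9 were tested and 0 were called by edgeR, with 5 at a p up to 0.05 before adjustment and a median log2 fold change of -0.02. Stat3 and Jak2, which carry the signal of the receptor, had log2 fold changes of -0.05 (adjusted p 0.669) and -0.19 (adjusted p 0.0854, called in 2 of 15 alternatives).

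Of 6 genes for receptors of calprotectin and their partners all were tested and 1 was called, with a median log2 fold change of 0.20. Before adjustment 3 had a p up to 0.05. Estimates were below 0 in 2 genes and above 0 in 4. Tlr4, named after its values were seen, had a log2 fold change of -0.31 (edgeR adjusted p 0.119). All KO libraries were below all WT libraries for Tlr4, a pattern of 20.7% of all tested genes. Ager, which encodes RAGE and is a main transcript of alveolar type 1 epithelium in lung, rose from 2068 ± 28.3 CPM (n = 3) to 2816 ± 68.2 CPM (n = 2). Its log2 fold change was 0.45 (SE 0.05, edgeR adjusted p 0.0446), beside those of Sftpc and Sftpb above. Bsg, a surface receptor of S100a9 protein, had a log2 fold change of 0.33 (edgeR adjusted p 0.0553). Bsg was called in 5 of 15 alternatives, with adjusted p values from 7.36e-08 to 0.586 over all of them, and its log2 fold change was 0.17 with the length and GC offset. The call for Ager was lost without WT1, WT2, WT3 or KO1 and without KO2 and KO3 together (adjusted p 0.0829 to 0.189), with no filter on low counts (0.0559) and once length and GC content were offset (0.339). For Ager the estimate was 0.27 on the log2 scale with this offset and between 0.40 and 0.47 in the other 14 alternatives.

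The tissue inhibitors of the matrix proteases showed no call by edgeR in 5 of 5 genes tested, with 4 at a p up to 0.05 before adjustment and a median log2 fold change of -0.25. Timp3 had a log2 fold change of -0.25 (SE 0.07, edgeR adjusted p 0.0916) and Timp2 one of -0.07 (adjusted p 0.593). Offsetting length and GC content gave -0.07 for Timp3 (adjusted p 0.558), and it was called in 2 of 15 alternatives, with DESeq2 and with the 6 libraries separate. In the NADPH oxidase, the complex that makes superoxide in phagocytes, 6 of 6 genes were tested and 0 were called by edgeR, with 2 at a p up to 0.05 before adjustment and a median log2 fold change of -0.11. Cyba had a log2 fold change of 0.38 (edgeR adjusted p 0.0511) and Rac2 one of -0.07 (adjusted p 0.613). Cyba was called in 5 of 15 alternatives (adjusted p 5.38e-06 to 0.467 over all 15), and its log2 fold change was 0.17 with the length and GC offset. They were the same 5 as for Bsg, namely DESeq2, at least 10 counts in every sample, where 5.3% of all tested genes were called, the 6 libraries separate with and without the block, and the fit without WT3 and KO1.

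Adhesion genes bring neutrophils to the vessel wall, and 9 of 9 were tested and 1 was called, with a median log2 fold change of -0.07. Itgal, which encodes the alpha chain of the integrin LFA-1 of all leukocytes, fell from 80.9 ± 1.92 CPM (n = 3) to 58.4 ± 2.47 CPM (n = 2), a log2 fold change of -0.46 (SE 0.05, edgeR adjusted p 0.0446). Its endothelial ligands Icam1 and Icam2 had log2 fold changes of 0.10 (adjusted p 0.336) and 0.14 (adjusted p 0.446). The call for Itgal was lost without WT1, WT2, WT3 or KO1 and without KO2 and KO3 together (adjusted p 0.0840 to 0.189) and with the length and GC offset (0.125). Its log2 fold change stayed between -0.52 and -0.40 in all 15 alternatives.

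**Figure D4:**
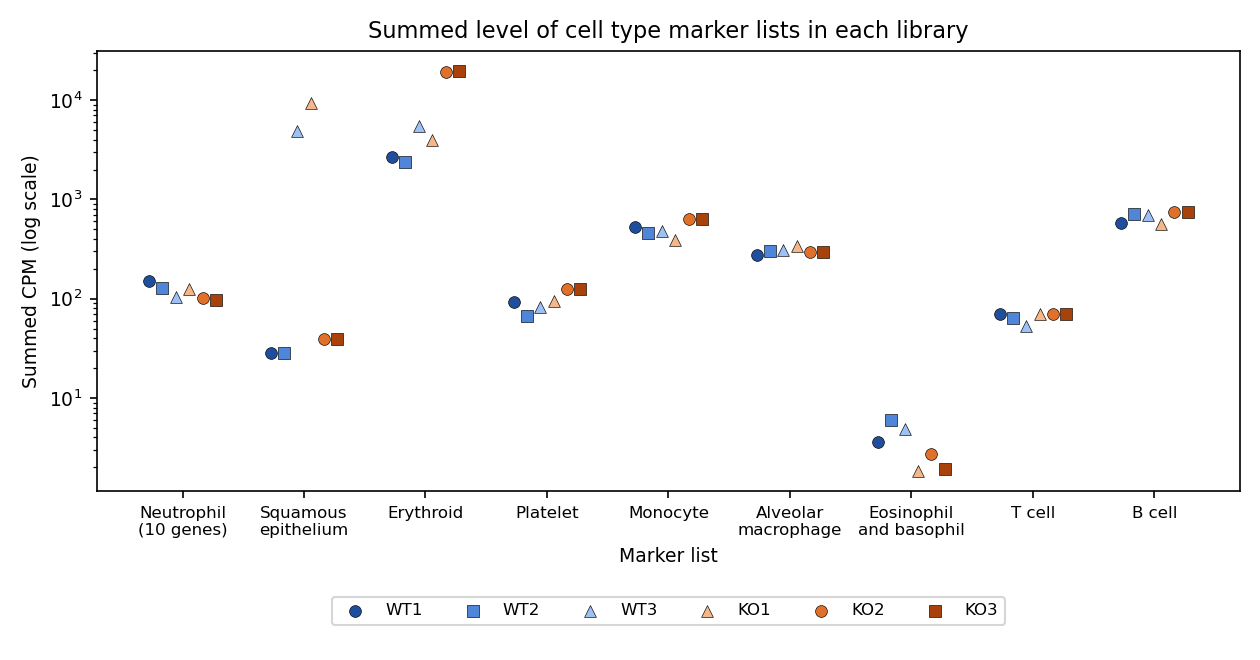
Summed CPM (log axis) of the 10 neutrophil genes and of marker lists of 8 other cell types in each library. The squamous sum is high in WT3 and KO1, the erythroid sum is high in KO2 and KO3, and the neutrophil sums of 98.0 to 150 CPM have neither pattern.

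Blood and immune cell markers were summed in the same libraries, since the neutrophils of lung lie largely in its vessels. Erythroid genes, 8 of 9 measured and led by Hbb-bs, summed to 2670, 2404 and 5526 CPM in WT1 to WT3 and 3973, 19011 and 19748 CPM in KO1 to KO3. KO2 and KO3 were thus the libraries with the most erythroid RNA and among those with the least Csf3r, Cxcr2 and Mmp9. Monocyte genes, 8 of 8 measured and led by Nr4a1, summed to 460 to 527 CPM in WT and 391 to 641 CPM in KO. Without Nr4a1 the sums were 374, 380 and 388 CPM in WT1 to WT3 and 291, 304 and 309 CPM in KO1 to KO3, so that all KO libraries were below all WT libraries, as for Mmp9, Ngp and Camp. Of the 8 monocyte genes 7 had estimates below 0 and 0 were called by edgeR, with 3 at a p up to 0.05 before adjustment and a median log2 fold change of -0.23. Alveolar macrophage genes, 8 of 8 measured and led by Car4, a gene that endothelium also expresses, summed to 277 to 306 CPM and 294 to 336 CPM. Without Car4 they summed to 120, 138 and 136 CPM in WT and 107, 107 and 108 CPM in KO, again with all KO libraries below all WT libraries. With Mrc1 and Pparg left out as well the sums overlapped, at 54.1 to 64.4 CPM in WT and 58.1 to 61.1 CPM in KO. Of the 8 genes 5 had estimates below 0 and 3 above 0, among them Krt79 (log2 fold change 0.31) and Marco (0.54), neither of them called by edgeR (adjusted p 0.0799 and 0.374). Mrc1, the mannose receptor gene of macrophages and some endothelium, fell with a log2 fold change of -0.56 (edgeR adjusted p 0.0474), a call kept in 9 of 15 alternatives and lost without WT1, WT2, WT3 or KO1, without KO2 and KO3 together and with the length and GC offset (0.0896 to 0.189), while its log2 fold change ranged from -0.62 to -0.42. T cell genes, 8 of 8 measured and led by Lck, summed to 53.4 to 70.6 CPM and 69.8 to 70.9 CPM, and B cell genes, 6 of 7 measured and led by Ighm, to 573 to 718 CPM and 566 to 750 CPM. Without Ighm the B cell sums were 196 to 224 CPM in WT and 176 to 184 CPM in KO. Eosinophil and basophil genes, 8 of 8 measured and led by Cpa3, which is also a mast cell gene, summed to 3.58 to 6.03 CPM in WT and 1.83 to 2.71 CPM in KO, with ranges that overlapped once Cpa3 was left out, and with Epx, the defining gene of eosinophils, at 0 or 1 count in every library. Cpa3, which encodes carboxypeptidase A3, fell from 3.03 ± 1.07 CPM (n = 3) to 0.547 ± 0.031 CPM (n = 2), a log2 fold change of -2.46 (edgeR adjusted p 0.0474). The call for Cpa3 held in 8 of 15 alternatives, with a log2 fold change from -2.67 to -2.16 over all 15, and was lost without WT1, WT2, WT3, KO1 or KO3, without KO2 and KO3 together and with the offset (0.0511 to 0.189). Of the 8 listed genes 4, Cpa3, Mcpt8, Ms4a2 and Fcer1a, had all KO libraries below all WT libraries, a pattern of 20.7% of all tested genes, and 1, Ear6, had the reverse. Prg2 had a log2 fold change of 0.53 (edgeR adjusted p 0.595). The part of any of these cells in the levels of the neutrophil genes was not tested.

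Genes with a profile most like that of Retnlg were sought among 15153 genes with a mean of at least 1 CPM, as a description over 6 libraries that share depth and composition effects. By Pearson's r of log2(CPM + 0.5), they were Aars2 (0.990), Ptpru (0.970), Stard10 (0.968), Ddb2 (0.967) and 2510009E07Rik (0.965), and 29 genes reached 0.9. None of the 7 other neutrophil genes at this level was among them. Their r with Retnlg ran from -0.449 for Ngp to 0.547 for S100a8.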

How the data were processed

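RNA of 6 lungs was sequenced. The authors trimmed and filtered the reads, aligned them with STAR to GRCm38 (mm10) and used HTSeq to count the reads of each gene, and they deposited 1 table of raw counts with no normalization. The submitters' processing notes name Trimmomatic 0.36, STAR 2.5.3a, Picard 2.9.0 and HTSeq 0.6.0. Whether the counting used the strand was not given in the sources used here, and no exon of the 10 genes overlaps another gene. Identifiers were placed with GENCODE M21, which holds 97.5% of them. All 6 columns of counts were used, and 0 lines of the table named no gene.

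Tests were run with edgeR 4.0.16 under R 4.3.3. KO2 and KO3 were summed, after every pair of libraries had been compared with counting noise, and the mean of their CPM is 1 replicate in each mean ± SD. The function filterByExpr took out genes of low count, TMM factors scaled the libraries, and the quasi-likelihood test, two-sided, set KO against WT. The Benjamini-Hochberg adjustment ran over all 18660 tested genes, with calls made up to an adjusted p of 0.05. Each SE is the estimate over the root of F. CPM values were computed from the counts with the scaled library sizes, and CPM per kb with the merged exon length of the gene. A gene with at most 3 counts in every library of a group was treated as at the floor, a limit for counting error alone, as reads can be copies of 1 molecule.

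The members and all gene lists were chosen with earlier results of these data known, including which libraries stand apart. Of 175 listed genes 173 were found, 169 by symbol and 4 by gene identifier. The genes named are the 10 members, of each list every called gene and the 2 with the highest mean CPM, of each cell type list its most abundant gene, the 5 genes most like Retnlg, and Zpbp2. Elane, Ctsg, Fcnb, Csf3, Epx, Krt6a, Dsg3, Ltf, Il1r2, Cebpb, Cxcl1, Csf2, Il1b, Csf2rb, Ms4a3, Mrc1, Sftpc, Sftpb, Mcpt8, Ms4a2, Fcer1a, Ear6, Prg2, Krt79, Marco and Pparg were added after their values were seen. Tlr4, Itgb2l, Krt1, Krt10 and Ivl were also added in this way. Alternatives were library size alone, DESeq2 1.42.0, no filter, at least 10 counts in every sample, 6 separate libraries with and without the replicate number as a block, leaving out each library, leaving out WT3 and KO1 together, an offset for gene length and GC content, and, added after seeing the data, leaving out KO2 and KO3 together and summing a cell type list without its most abundant gene, and for alveolar macrophages also without Mrc1 and Pparg. The fit was tested on simulated data before use. Same-numbered WT and KO libraries correlated at -0.656, 0.755 and -0.821 in their deviations from the group means. WT3 and KO1, the libraries with squamous transcripts, correlated at 0.853. Because these 2 libraries stand apart and KO2 and KO3 are nearly alike, this check cannot decide whether the numbers pair the samples. The ZT10 libraries were not used here.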

Additional observations from a re-analysis of the deposited data

How the results depend on the processing

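The number of neutrophil genes called by edgeR, 0 of 9, was 3 with DESeq2 (Mmp9, Ngp and Camp), 1 with the 6 libraries kept separate (Mmp9), 2 with the replicate number as a block (Mmp9 and Ngp), 2 without WT3 and KO1 (S100a8 and Mmp9) and 0 in the other alternatives, 0 to 0 when a single library was left out. The 426 genes called over the whole table became 3889 with DESeq2, 909 with at least 10 counts in every sample, 3402 with the 6 libraries kept separate, 1157 with the block, 2256 without WT3 and KO1, 0 without KO2 and KO3, 0 with the length and GC offset, and 0 to 418 when a single library was left out. It was 0 without WT1, WT2 or WT3 and 17 without KO1. The 3 called genes of the pathway lists became 18, 5, 18, 9, 15, 0 and 0 under the same alternatives in this order, and 0 to 3 when a single library was left out, with 0 without WT1, WT2, WT3 or KO1. The median log2 fold change of the 9 genes, -0.25, was -0.52 without WT3 and KO1 and -0.38 to -0.16 when a single library was left out. When a single library was left out, the log2 fold change ranged from -0.040 to 0.35 for S100a9, from -0.27 to 0.27 for Retnlg, from -0.23 to 0.0072 for Mmp8, from -6.03 to 7.61 for Asprv1, from -0.014 to 0.11 for Cxcr4 and from -0.042 to 0.17 for Icam2. The sign turned without KO1 for all of these but Mmp8, without WT1 also for Retnlg, and without WT2 for Mmp8. It also turned without WT3 and KO1 for S100a9 (-0.24), Cxcr4 (-0.037) and Icam2 (-0.013), with the block for Retnlg (0.013), without KO2 and KO3 for Cxcr2 (0.044), and with the length and GC offset for Lrg1 (-0.14), Cxcl12 (0.0058) and Stat3 (0.078). For S100a8, Csf3r, Mmp9, Ngp, Camp and Ltf the log2 fold change kept its direction in all 15 alternatives. The cause of these changes was not tested. Fold changes over all tested genes had a Spearman rho of -0.334 with gene length, a description across 18515 genes that are not independent replicates, and -0.009 with the offset. The labels link same-numbered libraries by the number alone, and with the 6 libraries separate 1157 genes were called with the block and 3402 without it. Ly6g, Mpo, Elane and the other azurophil genes have few counts, which limits what can be said of them, and without KO1, alone or with WT3, the lone KO sample was taken to vary like the WT samples, and with 2 KO samples the spread within KO is poorly known.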

Other observations

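Ratios between neutrophil genes within a library, chosen after their values were seen and so given with no test, do not depend on library scaling. S100a9 had 2.0, 2.04 and 1.96 counts per count of S100a8 in WT1, WT2 and WT3, and 2.79, 2.5 and 2.42 in KO1, KO2 and KO3. The ratio was close to constant within WT, WT3 included, and higher in every KO library. The share of gene pairs whose ratio separates the genotypes was not computed. Of single tested genes 20.7% had all KO libraries below all WT libraries and 20.1% the reverse. Ratios also keep the trend of fold changes with gene length (rho -0.334). S100a9, with 522 bp of exon, is shorter than S100a8, with 694 bp, and the part of length was not tested. Per 1000 counts of Csf3r, Mmp9 had 709, 677 and 635 counts in WT against 470, 501 and 495 in KO, with no overlap between the genotypes. Per 1000 counts of Csf3r, Ngp had 25.7, 177 and 143 counts in WT against 6.35, 35.3 and 32.4 in KO, and here WT1 lay within the KO range. Ltf did not share this order, with 3191, 3655 and 2609 counts per 1000 of Csf3r in WT and 1021, 2234 and 2279 in KO. Retnlg per 1000 counts of Csf3r was 175, 144 and 119 in WT and 145, 185 and 206 in KO, and the groups overlapped.

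Cebpb, Cxcl1, Csf2 and Il1b were picked after their values were seen, because every KO library was above every WT library, a pattern of 20.1% of all tested genes. None of the 4 was called by edgeR. In the list of the G-CSF axis, which holds Cebpb and Csf2, 3 of 11 genes had this pattern and 2, Jak2 and Csf2rb, the reverse. It was seen in 2 of 6 CXCR2 ligand genes, Cxcl1 among them, and in 2 of the 31 further genes of mature neutrophils, Il1b among them, and the reverse in 0 genes of either list. Cebpb, which encodes a C/EBP factor of emergency granulopoiesis, had 34.2 ± 7.05 CPM (n = 3) in WT and 62.5 ± 8.38 CPM (n = 2) in KO, which gave a log2 fold change of 0.87 (edgeR adjusted p 0.0679). Cxcl1, a ligand of CXCR2, had 54, 40 and 32 counts in WT against 62, 71 and 77 in KO (log2 fold change 0.86, edgeR adjusted p 0.102). Csf2, which encodes GM-CSF, had a log2 fold change of 0.66 (edgeR adjusted p 0.0833), and Il1b, a cytokine gene of activated neutrophils and monocytes, one of 0.69 (adjusted p 0.197).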
